A study of Mus musculus with 24 samples.

Results

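The comparison described here sets the injured (ipsilateral) hippocampus of mouse pups labelled NEIL1-KO against that of wild-type (WT) pups, after hypoxia-ischemia at postnatal day 10. It holds 8 of the 24 RNA-seq libraries of the study, chosen by their titles: 4 labelled NEIL1-KO and ipsilateral, and 4 labelled WT and ipsilateral. Each genotype had 2 libraries taken 3 h and 2 taken 6 h after the insult, and time was kept as a block in the test of genotype. All animals of both genotypes underwent the insult, so no uninjured animal is part of the comparison, and the hippocampus of the other (contralateral) side was sequenced from the same genotypes and times. The remaining 8 libraries were titled NEIL2-KO but carry the genotype tag NEIL1-KO. They were grouped by title, and this conflict in their labels bears on the NEIL2-KO values and on the fits that include them. Neil2 itself had 0 to 3.019 normalized counts in the ipsilateral ones, which goes with their titles. It had 15.15 to 26.33 in the WT and 16.63 to 28.7 in the labelled NEIL1-KO ipsilateral libraries. The sources used here do not state the allele, the strain or the exon removed. Libraries of 1 group were labelled as biological replicates, and no p-value covers more than the spread among them.

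Neil1 encodes a DNA glycosylase of the base excision repair pathway. Glycosylases of this pathway find an oxidized base and cut it from the DNA backbone, after which an endonuclease, a polymerase and a ligase fill and seal the gap. Hypoxia-ischemia combines a carotid occlusion on one side with low oxygen. It injures the hippocampus of that side, where hypoxia and the return of oxygen raise oxidative DNA damage, and it is used as a model of brain injury at birth.

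The 8 libraries held 18702928 to 25669176 reads over all lines of the table. Xist, the RNA made from the inactive X chromosome of females, was high in replicate 2 of the libraries labelled NEIL1-KO at both times (14050 and 17970 normalized counts) and lay between 4.94 and 16.91 in the WT libraries, so the genotypes were not matched for sex. NEIL1-KO 6 h replicate 2 also had the highest share of reads on unnamed lines (12.484%) and the lowest weight (0.241) when libraries were weighted by their distance from the fit. Calls and medians that changed most without this library are given with and without it. Markers of neurons, hippocampal subfields, astrocytes, microglia and the oligodendrocyte lineage were all detected, and none of these defining markers was at 0 in all 8 libraries.

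The targeted gene did not go with the label. Neil1 had 152.9 and 145.7 normalized counts at 3 h and 114.7 and 154.6 at 6 h in the libraries labelled NEIL1-KO, against 119.3 and 117.5 at 3 h and 96.13 and 122.6 at 6 h in WT. The ranges overlapped and the log2 fold change was 0.31 ± 0.15 (SE), with a limma Benjamini-Hochberg adjusted p of 0.341. The pooled Neil1 reads were 604 in the labelled knockout and 485 in wild type. After scaling for depth the labelled knockout stood at 124% of WT (exact 95% counting interval 110% to 141%), at 121% without NEIL1-KO 6 h replicate 2 and at 118% without the animals with high Xist. Neil2, the related glycosylase, had 102 pooled reads in the labelled knockout and 85 in wild type, a scaled level of 120% (89.0% to 162%). Reads outside a removed part of the gene would check nothing, so the label could not be checked from these counts, and every result below concerns libraries labelled NEIL1-KO.

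Between libraries labelled NEIL1-KO and WT, 7 of 18364 genes passed the test (0.0381%), a Benjamini-Hochberg adjusted p under 0.05 from limma on log2(normalized count + 1). A gene was tested if it had at least 10 normalized counts in at least 2 of the 24 libraries. Of the called genes, 4 rose (0.0218%) and 3 fell (0.0163%). At an unadjusted p under 0.05 there were 2914 genes (15.87%). The genes that rose all lie on chromosome 14: Gm16867, Plac9a, Duxbl1 and Tmem254a. The genes that fell were Ndn on chromosome 7 and Scn2b and Cbl on chromosome 9, the chromosome of Neil1. In all 7 the 4 libraries labelled NEIL1-KO lay apart from the 4 WT libraries. Among all genes tested, 397 had such groups with labelled NEIL1-KO higher (2.16%) and 727 with it lower (3.96%). The same 7 genes passed in edgeR's quasi-likelihood test on the recovered reads, which also called 7, and all of them were among the 276 (1.5%) of DESeq2.

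Gm16867, a predicted gene, had 158.1 and 105.3 normalized counts at 3 h and 132.2 and 157.4 at 6 h in labelled NEIL1-KO, against 5.682 and 10.37 at 3 h and 9.791 and 6.582 at 6 h in WT. All 4 WT libraries were near that minimum of 10 or under it, while no labelled NEIL1-KO library was below 100. The log2 fold change was 3.95 ± 0.26 (SE, adjusted p = 0.000855), or 15.5-fold. It was chosen as a called gene although the naming rule leaves out predicted genes.

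Plac9a, which encodes a small secreted protein first described in placenta, had 1242 and 652.2 normalized counts at 3 h and 740.7 and 850.8 at 6 h in labelled NEIL1-KO, against 136.4 and 201.6 at 3 h and 185.1 and 146.5 at 6 h in WT. Every labelled NEIL1-KO library stood above every WT library at both times, and the spread was wider in labelled NEIL1-KO, at 871.3 ± 260 in labelled NEIL1-KO and 167.4 ± 31 in WT (SD, n = 4 each). The log2 fold change was 2.35 ± 0.21 (adjusted p = 0.00809), or 5.09-fold.

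Duxbl1 encodes a double-homeobox transcription factor. It had 249.3 and 198.4 normalized counts at 3 h and 169 and 296.2 at 6 h in labelled NEIL1-KO, against 76.71 and 65.65 at 3 h and 61.42 and 66.64 at 6 h in WT, a log2 fold change of 1.71 ± 0.19 (adjusted p = 0.0203). Tmem254a, a multi-pass membrane protein gene, was the most abundant of the 4, with 4122 and 3130 at 3 h and 2781 and 3085 at 6 h in labelled NEIL1-KO, against 1243 and 1331 at 3 h and 1272 and 1462 at 6 h in WT. Its log2 fold change was 1.29 ± 0.13 (adjusted p = 0.00876), or 2.45-fold. In both genes the lowest labelled NEIL1-KO library was well above the highest WT library.

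Plac9a, Tmem254a and Duxbl1 belong to a repeated stretch of chromosome 14 with near-identical copies, so the division of reads among copies is uncertain. In the GENCODE M21 transcripts, 536 of 536 bases were identical between transcripts of Plac9a and Plac9b, and 1108 of 1108 between transcripts of Tmem254a and Tmem254b. Duxbl1 and Duxbl3 transcripts shared 954 of 956 aligned bases (99.8%), and Tmem254a and Tmem254c 96.2%. The copies Plac9b, Tmem254b, Tmem254c, Duxbl2 and Duxbl3 were not analysed here. The windows around the starts of Plac9a and Plac9b are shown because they carry the same repeat into the promoter. Both are from RefSeq (GRCm38.p6, minus strand, 5′ to 3′, at chr14:25902844-25903143 and chr14:26182302-26182601), and the capitals mark the longest run of bases they share, 222 of the 300 bases of each window.
Plac9a: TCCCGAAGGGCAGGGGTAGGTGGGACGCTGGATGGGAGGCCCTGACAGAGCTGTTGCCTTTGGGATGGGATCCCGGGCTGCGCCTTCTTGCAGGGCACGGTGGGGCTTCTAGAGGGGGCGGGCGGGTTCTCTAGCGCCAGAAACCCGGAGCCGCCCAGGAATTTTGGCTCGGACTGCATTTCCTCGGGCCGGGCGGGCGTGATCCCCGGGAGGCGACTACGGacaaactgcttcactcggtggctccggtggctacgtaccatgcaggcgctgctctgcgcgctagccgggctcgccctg
Plac9b: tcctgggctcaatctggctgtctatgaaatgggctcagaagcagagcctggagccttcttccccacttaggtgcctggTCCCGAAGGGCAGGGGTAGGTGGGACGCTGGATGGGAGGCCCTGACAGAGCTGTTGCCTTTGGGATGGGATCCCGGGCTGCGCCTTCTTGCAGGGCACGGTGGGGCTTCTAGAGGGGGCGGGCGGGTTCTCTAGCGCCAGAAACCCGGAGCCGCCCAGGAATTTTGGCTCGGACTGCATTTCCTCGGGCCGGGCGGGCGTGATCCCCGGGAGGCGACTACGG
In Plac9a the shared run opens the window and in Plac9b it closes it, so the annotated starts of the copies are offset within one repeated sequence. These coordinates are of another build than the deposited values (GRCm39) and serve only to name the windows.

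Ndn encodes necdin, a member of the MAGE family that is expressed from the paternal chromosome and restrains growth in neurons. It had 5122 and 4648 normalized counts at 3 h and 4040 and 3822 at 6 h in labelled NEIL1-KO, against 9144 and 9224 at 3 h and 8511 and 9649 at 6 h in WT. The labelled NEIL1-KO level was thus 0.48 times that of WT in the fit, with a log2 fold change of -1.06 ± 0.10 (adjusted p = 0.00876). Chosen after its values were seen, the imprinted neighbour Mkrn3 had 306.4 to 578.3 in labelled NEIL1-KO and 547.4 to 691.1 in WT (-0.53 ± 0.16, adjusted p = 0.263), Snrpn had 4162 to 6024 in labelled NEIL1-KO and 5824 to 7051 in WT (-0.31 ± 0.10, adjusted p = 0.265), and Magel2 had 197.2 to 489.7 in labelled NEIL1-KO and 301.8 to 455 in WT (-0.39 ± 0.27, adjusted p = 0.456). None of these neighbours passed in the 8 libraries, and all of them overlapped between the genotypes. In a fit to all 24 libraries, described further on, Mkrn3 (adjusted p = 0.0122) and Snrpn (0.0187) passed, and without NEIL1-KO 6 h replicate 2 that fit gave 0.0659 and 0.0832.

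Scn2b, which encodes a beta subunit of voltage-gated sodium channels, had 457 and 539 normalized counts at 3 h and 364.2 and 233.3 at 6 h in labelled NEIL1-KO, against 1410 and 1138 at 3 h and 722.7 and 792.3 at 6 h in WT. Both genotypes were lower at 6 h than at 3 h, and the difference between them was -1.35 at 3 h and -1.37 at 6 h on the log2 scale. The fitted log2 fold change was -1.36 ± 0.15 (adjusted p = 0.0199). Cbl, an E3 ubiquitin ligase gene whose protein turns off receptor tyrosine kinases, had 776.7 and 1069 at 3 h and 987.6 and 890.6 at 6 h in labelled NEIL1-KO, against 1812 and 1811 at 3 h and 1680 and 1764 at 6 h in WT. The WT libraries of Cbl were within a narrow range and all labelled NEIL1-KO libraries lay below it (log2 fold change -0.93 ± 0.11, adjusted p = 0.0332).

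**Figure D1:**
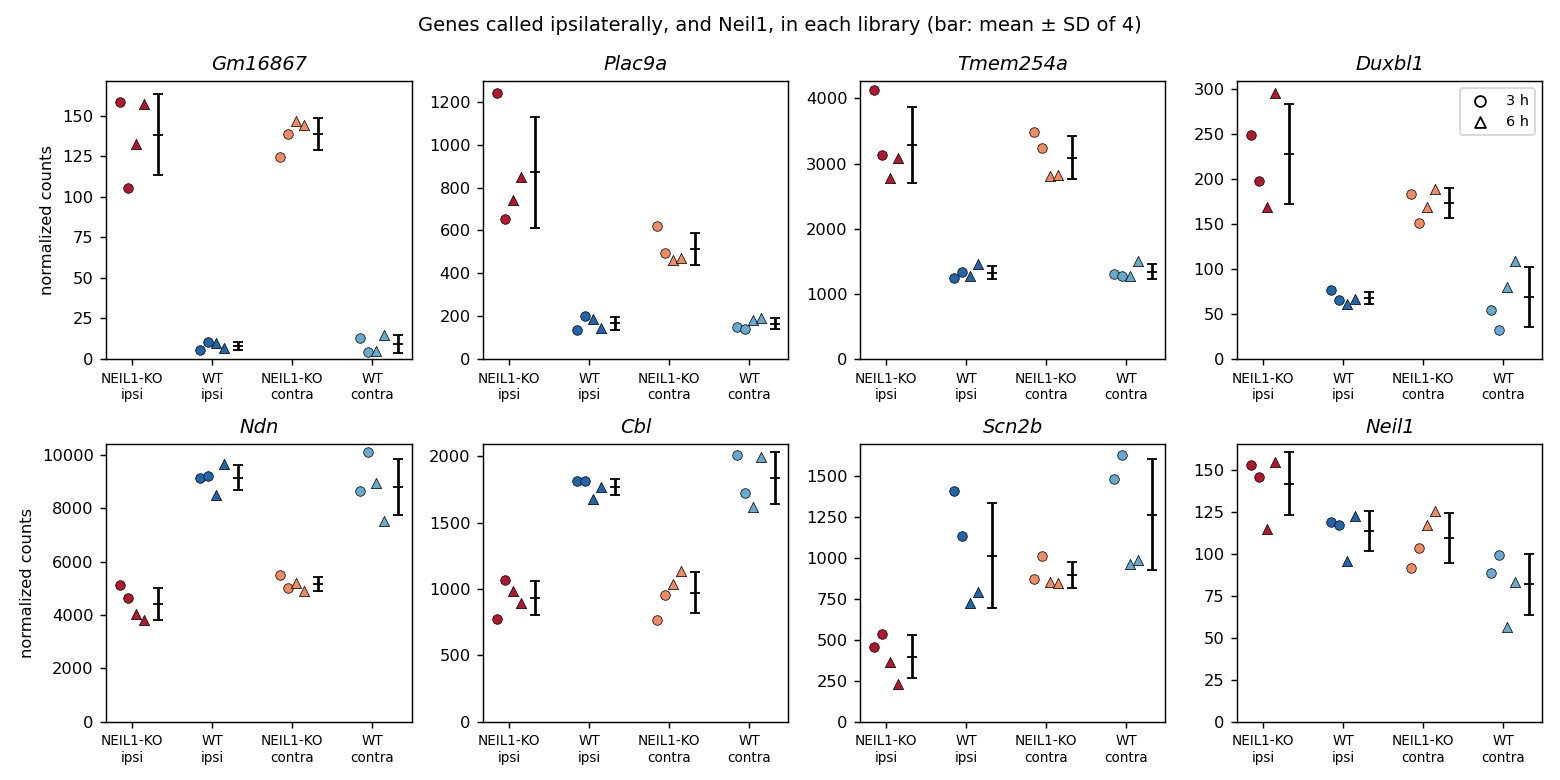
Normalized counts of the 7 genes called ipsilaterally and of Neil1 in each labelled NEIL1-KO and WT library of both sides (vertical axes, each from 0; circles 3 h, triangles 6 h, bars mean ± SD of 4 libraries). The ipsilateral groups are apart in all 7 called genes and overlap in Neil1, where labelled NEIL1-KO spans 114.7 to 154.6 and WT 96.13 to 122.6.

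How firmly these genes were called depended on single libraries. When each of the 8 libraries was left out in turn, Gm16867 and Plac9a passed in 8 of 8 fits, Ndn and Tmem254a in 5, Duxbl1 and Scn2b in 3 and Cbl in 1. The count was 2 without WT 3 h replicate 1, WT 3 h replicate 2 or WT 6 h replicate 1, 4 without WT 6 h replicate 2 or NEIL1-KO 3 h replicate 1, and 11 without NEIL1-KO 3 h replicate 2. Without NEIL1-KO 6 h replicate 2, 6 genes passed (0.0327%), 4 higher and 2 lower (0.0109%), and all 6 were among the 7. Without the animals with high Xist, 10 passed, the 7 included. With a sex term or a choroid plexus term in the 8-library fit, Gm16867 alone of the 7 still passed (adjusted p = 0.0219 and 0.0436), while all 7 kept their direction, with log2 fold changes for Plac9a of 2.53 and 2.05 and for Cbl of -1.01 and -0.82. In the NEIL2-KO ipsilateral libraries, whose difference from the other genotypes was not tested here, Plac9a had 665.7 to 1279 normalized counts, Tmem254a 3154 to 3595 and Duxbl1 160.7 to 205.5, all above the highest WT value of each gene (201.6, 1462 and 76.71). Gm16867 had 3.781 to 8.191 there, Ndn 8350 to 8926, Cbl 1627 to 1852 and Scn2b 695.8 to 1565, and these ranges overlapped with those of WT.

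On the contralateral side the comparison of labelled NEIL1-KO with WT called 33 genes (0.18%), 10 higher (0.0545%) and 23 lower (0.125%), in 8 other libraries that may come from the same animals. Of the 7 genes called ipsilaterally, 6 were among the 33, which is 6 of 7 of one list and 6 of 33 of the other. All 33 had the same sign on both sides. With 1 contralateral library left out the count could be higher (82 without WT 3 h replicate 2 and 60 without WT 6 h replicate 2), or lower (16 without WT 6 h replicate 1, 17 without NEIL1-KO 3 h replicate 2, 18 without NEIL1-KO 6 h replicate 2 and 20 without NEIL1-KO 6 h replicate 1). The contralateral log2 fold changes of the shared genes were 3.91 for Gm16867 (adjusted p = 0.000191), 1.64 for Plac9a (0.000115), 1.44 for Duxbl1 (0.0243), 1.20 for Tmem254a (8.75e-05), -0.77 for Ndn (0.000499) and -0.92 for Cbl (0.00317).

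Scn2b was the exception. Contralaterally it had 870.5 and 1014 normalized counts at 3 h and 851.6 and 847.6 at 6 h in labelled NEIL1-KO, against 1481 and 1629 at 3 h and 962.8 and 987.1 at 6 h in WT, a log2 fold change of -0.46 that did not pass (adjusted p = 0.12). The test of the difference between the sides did not pass for Scn2b either (-0.90 ± 0.18, adjusted p = 0.416). That test took the sides as separate libraries, since the labels do not say outright that same-numbered libraries come from 1 animal, although high or low Xist agreed between the sides in 12 of 12 such pairs. With the animal as a random effect Scn2b had the same difference (-0.90 ± 0.17, adjusted p = 0.346), and 0 genes passed. For no gene of the table did this difference pass (0 of 18364, 0.0%), with 2199 genes at an unadjusted p under 0.05 (11.97%), a smallest adjusted p of 0.367, 0 genes called by edgeR and 3 by DESeq2. That count rested on single libraries: it was 1 without NEIL1-KO ipsilateral 3 h replicate 2, 41 without WT ipsilateral 6 h replicate 1, and 1704 without NEIL1-KO ipsilateral 6 h replicate 1, a fit in which NEIL1-KO 6 h replicate 2 is the only labelled NEIL1-KO library of its side and time.

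**Figure D2:**
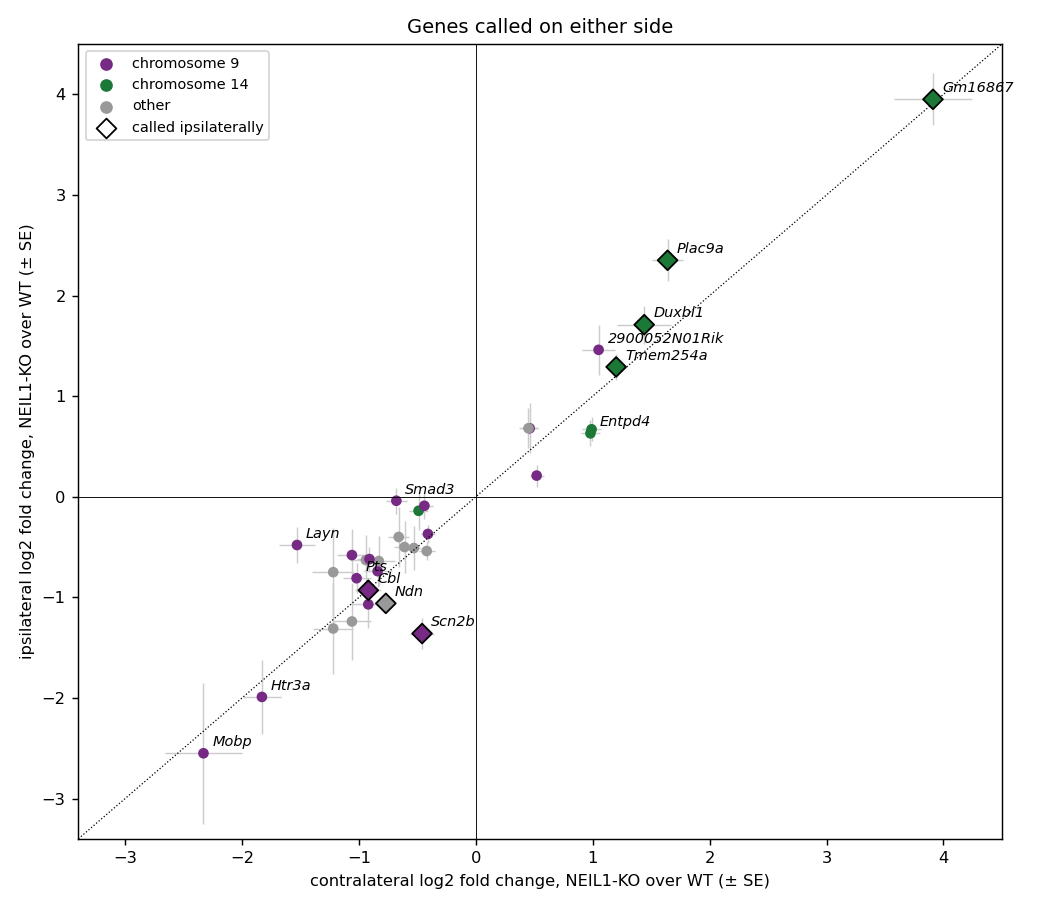
Log2 fold changes (± SE) of labelled NEIL1-KO over WT on the contralateral side (horizontal) and the ipsilateral side (vertical) for the 34 genes called on either side, coloured by chromosome. All 34 lie in the quadrants of equal sign, with Gm16867 highest on both sides (3.91 and 3.95) and Mobp lowest (-2.33 and -2.55).

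The 34 genes called on either side were crowded on 2 chromosomes. On chromosome 9 there were 16 (47.1% of them, against 5.39% of all genes tested) and on chromosome 14 there were 7 (20.6%, against 4.0% of all genes tested). Among those called contralaterally only, 27 in number, 10 also had ipsilateral groups that did not overlap (37.0%, against 6.12% of all genes tested). When the spread was estimated from all 24 libraries, 16 passed ipsilaterally (59.3%, against 9.31%). That fit takes its spread in part from the contralateral libraries by which these genes were chosen, so the 59.3% is no separate support. The sides may also come from the same animals. Htr3a, a serotonin-gated ion channel gene found in interneurons, had 34.75 and 48.19 normalized counts at 3 h and 34.14 and 15.74 at 6 h in the labelled NEIL1-KO ipsilateral libraries, against 173.3 and 177.4 at 3 h and 164.7 and 49.37 at 6 h in WT. It was low in every labelled NEIL1-KO library, and WT 6 h replicate 2 was the low one of its group. Its log2 fold change was -1.99 ± 0.37 ipsilaterally (adjusted p = 0.263) and -1.83 contralaterally (adjusted p = 0.000199).

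Other genes on chromosome 9 that were called contralaterally were Pts, an enzyme of tetrahydrobiopterin synthesis (-0.81 ipsilaterally, -1.02 contralaterally), Nlrx1, a mitochondrial NOD-like receptor (-0.74 and -0.84), Nxpe4 (-0.62 and -0.91) and Sdhd, a membrane subunit of respiratory complex II (-0.37 and -0.41). In each of these the ipsilateral groups did not overlap. In Pts, for example, labelled NEIL1-KO had 187.4 to 287.9 normalized counts and WT 398.2 to 429. Further contralateral calls on this chromosome had smaller ipsilateral values and overlapping ipsilateral groups: Layn (-0.48 ipsilaterally, -1.53 contralaterally), Cryab (-0.58 and -1.06), Smad3 (-0.04 and -0.68), Tmod3 (-0.09 and -0.44) and Neo1 (0.21 and 0.52). Ets1, a transcription factor of endothelial and lymphoid cells, lay higher in labelled NEIL1-KO (0.68 and 0.46), and so did the noncoding transcript 2900052N01Rik (1.46 and 1.05). On chromosome 14, Entpd4 and Entpd4b, which encode intracellular nucleotide hydrolases and flank Gm16867 in the RefSeq gene order, were 0.63 and 0.67 ipsilaterally and 0.98 and 0.99 contralaterally. As near-identical copies they may share reads. Klf9 on chromosome 19, a hormone-responsive transcription factor, had 2030 to 2287 in labelled NEIL1-KO and 2934 to 3306 in WT ipsilaterally (-0.54, adjusted p = 0.263) and -0.42 contralaterally (adjusted p = 0.0234).

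Seen along chromosome 9, the genes called ipsilaterally were not the closest neighbours of Neil1. In the order of the 990 tested genes of that chromosome, with Neil1 at 0, Cbl stood at -145 and Scn2b at -117. Of the genes called contralaterally only, the closest was Neo1 at 34, followed by Layn at -63, Cryab at -70, Smad3 at 71, Sdhd at -77, Pts at -80 and Htr3a at -90. Within 5 Mb of Neil1, by RefSeq gene order, 108 genes were tested and 0 passed by limma in the 8 libraries. When the spread was estimated from all 24 libraries, 1 of the 108 passed as higher and 13 as lower (13.0% together, against 9.31% of all genes). That fit called 1 higher and 4 lower without NEIL1-KO 6 h replicate 2, and with a choroid plexus term 1 higher and 1 lower. The higher one was Uaca, an apoptosis regulator (0.73 ± 0.13, adjusted p = 0.00597). Among the lower ones were Insyn1, a protein of inhibitory synapses (-0.61 ± 0.12, adjusted p = 0.0084), and Fam219b (-0.46 ± 0.09, adjusted p = 0.0079). Over the whole chromosome 11.3% of genes passed in that fit, against 9.31% of all genes.

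**Figure D3:**
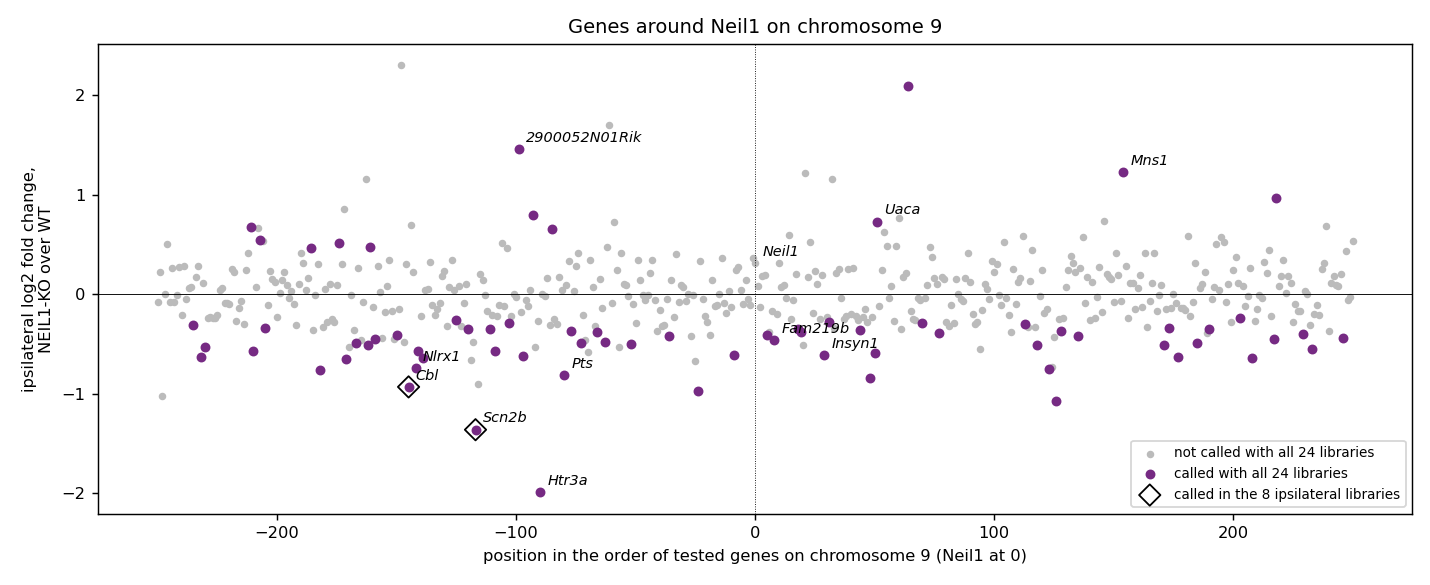
Ipsilateral log2 fold change of labelled NEIL1-KO over WT for genes of chromosome 9 within 250 places of Neil1, by place in the order of tested genes (Neil1 at 0). Cbl at -145 and Scn2b at -117 (diamonds) passed in the 8 libraries; purple points passed when the spread came from all 24 libraries.

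The number of genes called ipsilaterally depended on where the spread was estimated. With all 24 libraries in the fit, 1710 genes passed (9.31%), 351 higher (1.91%) and 1359 lower (7.4%) in labelled NEIL1-KO. Without NEIL1-KO ipsilateral 6 h replicate 2 this fit called 345 (1.88%), 52 higher (0.283%) and 293 lower (1.6%). Without the animals with high Xist it called 710 (3.87%), 123 higher (0.67%) and 587 lower (3.2%), and with a term for choroid plexus markers 180 (0.98%), 29 higher (0.158%) and 151 lower (0.822%). With the 12 ipsilateral libraries of the 3 genotypes 7 passed, as in the 8 libraries. The fit to all 24 takes 1 spread per gene for both sides. Library weights fitted to both sides were 0.579 (3 h) and 0.333 (6 h) in labelled NEIL1-KO ipsilaterally, and 1.363 and 2.03 contralaterally. In WT they were 2.356 and 0.596 ipsilaterally, and 0.97 and 1.374 contralaterally. Where the ipsilateral side varies more, p-values with all 24 libraries understate its spread. Of the 1710 genes, 584 had ipsilateral groups that did not overlap, against 1124 of all 18364 genes tested (6.12%). The overlap was read from the same values as the test, so it is no separate support. The genes named next were taken from those 584 by size after the fit to 8 libraries had called few.

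Several of the named genes that passed as lower with all 24 libraries encode receptors or neuronal proteins. Glra3, a glycine receptor subunit, had 18.24 and 48.19 normalized counts at 3 h and 31.52 and 33.33 at 6 h in labelled NEIL1-KO, against 49.24 and 74.87 at 3 h and 103.2 and 223.8 at 6 h in WT (log2 fold change -1.60 ± 0.29 in that fit, adjusted p = 0.00617). The highest labelled NEIL1-KO library was just below the lowest WT library, and WT 6 h replicate 2 was the highest of all. Nefh, the heavy neurofilament subunit of large axons, had 212 to 917.8 in labelled NEIL1-KO and 1068 to 1519 in WT (-1.22 ± 0.26, adjusted p = 0.0122). Vamp1, a synaptic vesicle fusion protein, had 286.1 to 440.4 in labelled NEIL1-KO and 572.3 to 1437 in WT (-1.05 ± 0.19, adjusted p = 0.00597). The 1437 was that of WT 6 h replicate 2, and the other WT libraries had 572.3 to 645. The somatostatin receptor gene Sstr3 (-1.02), the insulin receptor substrate gene Irs4 (-1.32), the diacylglycerol kinase gene Dgkk (-1.30) and the glycosyltransferase gene Extl1 (-1.01) also passed as lower. For Dgkk, WT 6 h replicate 2 had 758.6 and the other WT libraries 216.3 to 231.1, against 75.59 to 188.3 in labelled NEIL1-KO. Without NEIL1-KO 6 h replicate 2, Glra3, Nefh, Vamp1, Sstr3 and Extl1 kept an adjusted p under 0.05 in this fit (0.00636 to 0.0331), while Irs4 (0.0525) and Dgkk (0.098) did not. The log2 fold change of Nefh was then -0.76. With a choroid plexus term in this fit, Nefh (adjusted p = 0.0667), Sstr3 (0.0568) and Dgkk (0.0891) did not pass. Without the animals with high Xist, Vamp1 (adjusted p = 0.0539) and Dgkk (0.0649) did not.

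Those that passed as higher with all 24 libraries included genes of cilia and of the extracellular matrix. Mns1, a protein of motile cilia encoded on chromosome 9, had 83.41 and 75.08 normalized counts at 3 h and 137.5 and 108.3 at 6 h in labelled NEIL1-KO, against 50.19 and 38.01 at 3 h and 48.06 and 32.09 at 6 h in WT (1.23 ± 0.21, adjusted p = 0.0055). The cilium genes Ak7 (1.69), Ccdc114 (0.93) and Cfap46 (0.89), the collagen genes Col2a1 (1.19) and Col1a1 (1.07) and the transcription factor gene Myb (0.86) completed the named genes. Without NEIL1-KO 6 h replicate 2 Mns1 (adjusted p = 0.0118) and Col2a1 (0.0334) still passed in this fit, and the other 5 had adjusted p-values of 0.0708 to 0.199. Summed levels of 10 meningeal fibroblast markers, which include Col1a1, were 8571 to 18790 in labelled NEIL1-KO and 6770 to 8341 in WT, and their part in these results was not tested.

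Genes of base excision repair lay close to the middle of all genes. Over the lists described below and a list of 9 sex-linked genes, which held 411 genes together, 0 passed by limma in the 8 libraries and 0 by edgeR. An unadjusted p under 0.05 was found for 114 of the 411, a larger share than the 15.87% over all genes tested. DESeq2 called 20 and 64 passed with all 24 libraries, also larger shares than the 1.5% and 9.31% of all genes. The lists were chosen with earlier results of these data known, so these shares are no separate support. The median log2 fold change of all 18364 genes was -0.02. Over 11 glycosylase genes the median was 0.07, and their summed level was 2663 to 2927 normalized counts in labelled NEIL1-KO and 2757 to 2877 in WT. Neil3, a glycosylase of proliferating cells, had 32.15 and 32.5 at 3 h and 49.03 and 70.36 at 6 h in labelled NEIL1-KO, against 16.1 and 27.64 at 3 h and 33.82 and 22.21 at 6 h in WT. It was the 1 member that passed with all 24 libraries (0.83 ± 0.24, adjusted p = 0.0369), 9.09% of the list against 9.31% of all genes. Without NEIL1-KO 6 h replicate 2 it did not pass (adjusted p = 0.191). Nthl1, which removes oxidized pyrimidines, had 0.50 ± 0.22 and Ogg1, which removes oxidized guanine, 0.25 ± 0.15. Of 16 genes of downstream repair, the polymerase clamp gene Pcna and the strand break sensor gene Parp2 among them, 0 passed by limma in either fit and the median was 0.03.

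No listed gene of the response to the insult itself passed by limma in the 8 libraries. With all 24 libraries the share that passed differed among the lists. Of 25 immediate early genes (median -0.07), 22 cytokine, chemokine and NF-kB genes (0.11), 16 heat shock chaperones (0.09) and 16 integrated stress or unfolded protein response genes (-0.04), 0 passed by limma in the fit to 8 libraries or with all 24, and 0 by edgeR or DESeq2. Ier2 (-0.40 ± 0.11) and Junb (-0.28 ± 0.11), both transcription regulators induced within minutes, and the chemokine gene Cxcl16 (0.66 ± 0.23) had adjusted p-values of 0.263, 0.285 and 0.269. Of 20 hypoxia and glycolysis genes (median -0.12), 1 passed as higher and 4 as lower with all 24 libraries (25.0%, against 9.31% of all genes). Car9, a carbonic anhydrase induced by hypoxia, had 19.05 to 35.9 normalized counts in labelled NEIL1-KO and 4.937 to 17.05 in WT (1.29 ± 0.40, adjusted p = 0.0489). The glycolytic genes Pkm (-0.36) and Hk1 (-0.50) were lower. Leaving out NEIL1-KO 6 h replicate 2, that fit called 0 of the list as higher and 1 as lower, with adjusted p-values of 0.132 for Car9, 0.0898 for Hk1 and 0.0427 for Pkm, and with a choroid plexus term 0. Of 20 p53 target and cell death genes (-0.02), 1 passed as higher and 2 as lower, among them Zmat3, an RNA-binding p53 target with 1127 to 1418 in labelled NEIL1-KO and 1539 to 1779 in WT (-0.43 ± 0.07, adjusted p = 0.00559). Leaving out the same library, 0 passed as higher and 1 as lower, Zmat3 still having an adjusted p of 0.0204. Of 20 NRF2 targets and antioxidant genes (0.10), 1 passed as lower with all 24 libraries (5.0%, against 9.31% of all genes). This was the mitochondrial superoxide dismutase gene Sod2 (-0.32 ± 0.09, adjusted p = 0.0301), which had -0.19 and an adjusted p of 0.147 without NEIL1-KO 6 h replicate 2. The 20 interferon response genes had a median of -0.05 at 3 h and 0.73 at 6 h, and 0 of them passed in either fit. Bst2 (0.72) and H2-K1 (0.44) were among those with the smallest p-values.

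Synaptic and neuronal genes were mostly lower in labelled NEIL1-KO, and those that passed by limma did so with all 24 libraries. Of 23 glutamate synapse genes, all 23 had a negative log2 fold change (median -0.46) and 13 passed as lower in that fit (56.5%, against 9.31% of all genes). Slc17a7, the vesicular glutamate transporter of hippocampal principal neurons, had 13090 and 16680 normalized counts at 3 h and 11750 and 5993 at 6 h in labelled NEIL1-KO, against 26010 and 22160 at 3 h and 16370 and 14210 at 6 h in WT (-0.78 ± 0.16, adjusted p = 0.0104). The genotypes did not overlap at either time, though the 3 h labelled NEIL1-KO libraries reached into the 6 h WT range, and NEIL1-KO 6 h replicate 2 was far below the rest. The AMPA receptor subunit gene Gria3 (-0.44) and the scaffold genes Dlgap1 (-0.50) and Shank3 (-0.35) also passed there.

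Of 17 GABA signalling genes, all 17 were negative (median -0.39) and 10 passed as lower with all 24 libraries (58.8%, against 9.31% of all genes). Among these were Gad2, which makes GABA (-0.60), and the scaffold gene Gphn (-0.37). Of 12 neuron markers, all 12 were negative (median -0.48) and 8 passed (66.7%, against the same 9.31%). Among these were Syt1, the calcium sensor of vesicle release (-0.59), Snap25, a vesicle fusion protein (-0.54), the neuronal enolase gene Eno2 (-0.59) and the light neurofilament gene Nefl (-0.51). Without NEIL1-KO 6 h replicate 2 the medians were -0.30, -0.26 and -0.29, and 3, 2 and 5 members passed. Without the animals with high Xist the medians were -0.35, -0.30 and -0.34, with 6, 1 and 7 passing, and with a choroid plexus term 0, 1 and 1 passed. With that term the log2 fold changes were -0.65 for Slc17a7, -0.61 for Gad2, -0.57 for Syt1 and -0.48 for Snap25. On the contralateral side the medians were -0.03, -0.05 and -0.10. In bulk tissue, fewer cells of a type and less RNA per cell cannot be told apart.

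The 12 markers of hippocampal subfields had a median of -0.16. With all 24 libraries 1 passed (8.33%, against 9.31% of all genes), Spock1 (-0.74 ± 0.15, adjusted p = 0.0102). The median was -0.02 without NEIL1-KO 6 h replicate 2, and Spock1 still passed (adjusted p = 0.0279). Without the animals with high Xist Spock1 passed (adjusted p = 0.012), and with a choroid plexus term it did not (0.0595). The 21 nuclear-encoded oxidative phosphorylation genes had a median of -0.05, and 4 passed as lower (19.0%, against 9.31% of all genes), among them Uqcrc2 of complex III (-0.25). None of the 21 passed in that fit without NEIL1-KO 6 h replicate 2, without the animals with high Xist or with a choroid plexus term, where Uqcrc2 had adjusted p-values of 0.11, 0.109 and 0.0911.

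**Figure D4:**
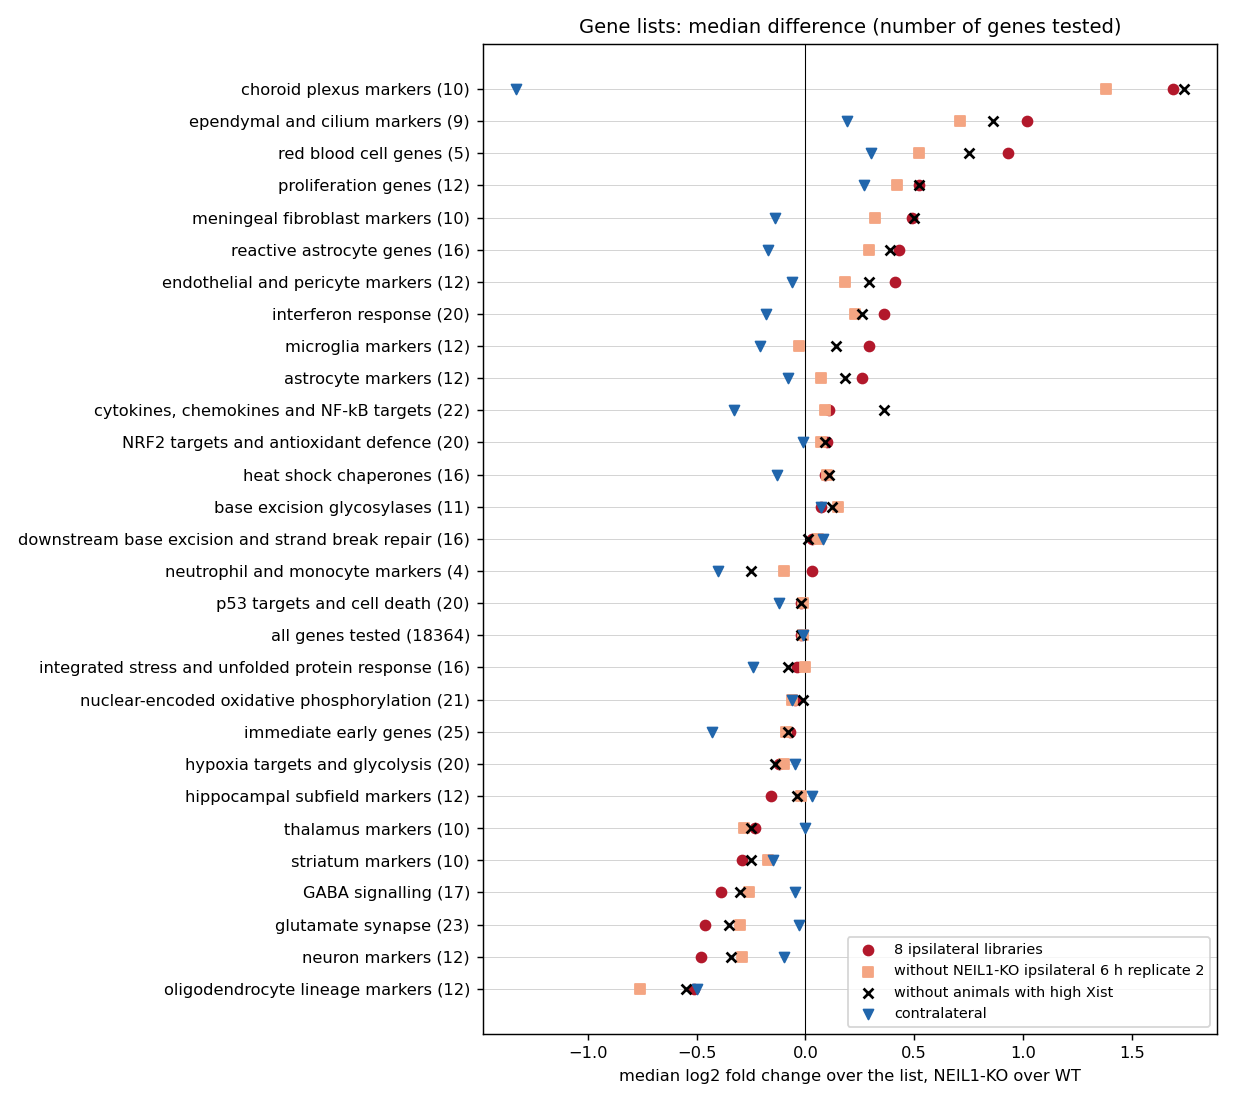
Median log2 fold change of labelled NEIL1-KO over WT in each gene list (rows, number of genes tested in parentheses), in the 8 ipsilateral libraries, without NEIL1-KO 6 h replicate 2, without animals with high Xist, and contralaterally. Neuron and synapse lists lie between -0.48 and -0.39 in the 8 libraries and between -0.10 and -0.03 contralaterally; choroid plexus markers lie at 1.69 and -1.33.

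The myelin genes named here, Mobp and Mag, had negative log2 fold changes on both sides. Of the 12 oligodendrocyte lineage markers they come from, 9 were negative and 3 positive ipsilaterally. Mobp, a structural protein of myelin, had 119 and 68.36 normalized counts at 3 h and 42.02 and 145.3 at 6 h in the labelled NEIL1-KO ipsilateral libraries, against 916.7 and 710.7 at 3 h and 88.12 and 1055 at 6 h in WT. WT 6 h replicate 1 was as low as the labelled NEIL1-KO libraries, and the ranges overlapped (-2.55 ± 0.70, adjusted p = 0.263). The contralateral log2 fold change was -2.33 (adjusted p = 0.0123). Mag, an adhesion protein of the inner myelin layer, had a log2 fold change of -1.75 ipsilaterally (adjusted p = 0.265) and -1.33 contralaterally (adjusted p = 0.0519). Over the 12 oligodendrocyte lineage markers the ipsilateral median was -0.51, it was -0.76 without NEIL1-KO 6 h replicate 2 and -0.55 without the animals with high Xist, and 4 members passed with all 24 libraries, 4 without NEIL1-KO 6 h replicate 2, 0 without the animals with high Xist and 0 with a choroid plexus term. The 4 that passed with all 24 libraries were 33.3% of the list, against 9.31% of all genes. The contralateral median was -0.50 with 4 members called, where 0.18% of all genes were called. The summed level of the list was 10870 to 19340 in labelled NEIL1-KO and 12630 to 28940 in WT, the lowest WT value being that of 6 h replicate 1.

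Glial, vascular and proliferation lists had positive medians ipsilaterally. The 12 astrocyte markers had a median of 0.26 and the 16 reactive astrocyte genes 0.43. With all 24 libraries 0 and 1 passed (0.0% and 6.25%, against 9.31% of all genes). The 1 was Ptx3, a secreted pattern recognition protein (0.51 ± 0.16, adjusted p = 0.0499). The medians were 0.07 and 0.29 without NEIL1-KO 6 h replicate 2, and Ptx3 did not pass (adjusted p = 0.0847). The filament genes Gfap (0.41 ± 0.16) and Vim (0.53 ± 0.16) did not pass. The 12 microglia markers, Itgam (0.63 ± 0.28) and Tmem119 (0.82 ± 0.41) among them, had a median of 0.29, which was -0.03 without NEIL1-KO 6 h replicate 2. Of 12 endothelial and pericyte markers (median 0.41), the receptor genes Kdr (0.68 ± 0.13, adjusted p = 0.00826) and Tek (0.66 ± 0.20, 0.0468) passed with all 24 libraries (16.7%, against 9.31% of all genes). Kdr was also called contralaterally (0.45, adjusted p = 0.0368). The endothelial and pericyte median was 0.18 without that library, Kdr still passed (adjusted p = 0.0393) and Tek did not (0.43, adjusted p = 0.274). In the fit to all libraries Kdr did not pass without the animals with high Xist (adjusted p = 0.0533) or with a choroid plexus term (0.0532). Of 12 proliferation genes (median 0.52), Aurkb (0.77 ± 0.16, 0.0118), Top2a (0.64 ± 0.15, 0.0173) and Ccna2 (0.57 ± 0.17, 0.0431), all needed for cell division, passed with all 24 libraries (25.0%, against 9.31% of all genes). Aurkb had 71.72 to 93.5 normalized counts in labelled NEIL1-KO and 37.88 to 68.54 in WT, with no overlap. Of the proliferation genes none of these 3 passed without NEIL1-KO 6 h replicate 2, at 0.0517, 0.102 and 0.23.

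Markers of tissue around the hippocampus and of blood differed widely among the labelled NEIL1-KO libraries. Ttr, the transthyretin gene that choroid plexus expresses in abundance, had 3858 and 73.96 normalized counts at 3 h and 11310 and 19800 at 6 h in labelled NEIL1-KO, against 83.34 and 330.6 at 3 h and 309.7 and 259.2 at 6 h in WT. Of the labelled NEIL1-KO libraries 3 were high, and 1 (3 h replicate 2) was below all of WT. The 10 choroid plexus markers summed to 4442, 387.7, 12510 and 21540 in labelled NEIL1-KO (3 h replicates 1 and 2, 6 h replicates 1 and 2), against 464, 737.1, 673.8 and 639.3 in WT. Their median log2 fold change was 1.69, none was at 0 in all 8 libraries, and 0 of them passed with limma in either fit. In the 8 libraries edgeR called 0 of them and DESeq2 called 4, where DESeq2 called 1.5% of all genes. By DESeq2 the adjusted p was 5.96e-07 for Folr1, 3.39e-05 for Slc4a5, 0.000145 for Aqp1 and 0.0118 for Ttr. Contralaterally the median was -1.33. Folr1, a folate receptor of choroid plexus, was the member whose groups did not overlap, at 26.9 to 182.4 in labelled NEIL1-KO and 8.901 to 16.13 in WT (2.85 ± 0.50, adjusted p = 0.263).

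Of 9 ependymal and cilium markers all 9 were positive (median 1.02). Cfap126 passed with all 24 libraries (1.55 ± 0.42, adjusted p = 0.0293), 11.1% of the list against 9.31% of all genes. It did not pass without NEIL1-KO 6 h replicate 2 (1.20, adjusted p = 0.17), without the animals with high Xist (0.179) or with a choroid plexus term (0.142). The summed level of the 9 markers was 842.7 to 1272 in labelled NEIL1-KO and 412.2 to 896.1 in WT. Of 10 meningeal fibroblast markers all 10 were positive (median 0.49), with Col3a1 at 1.06 ± 0.23 and Col1a2 at 0.95 ± 0.21. In the 8 libraries 0 of the 10 were called by limma or edgeR and 3 by DESeq2, where DESeq2 called 1.5% of all genes. The 5 red blood cell genes summed to 10420 to 50130 in labelled NEIL1-KO and 7711 to 14280 in WT, the highest being NEIL1-KO 6 h replicate 2 (median 0.93, and 0.52 without that library). As near-identical copies, the globin genes Hba-a1 and Hba-a2 (0.93 each) may share reads. The 10 thalamus markers had a median of -0.23, with 1 passing as higher (Cd24a) and 2 as lower (Calb2 among them) with all 24 libraries. Their sum was 9133 to 10180 in labelled NEIL1-KO. In WT it was 11450 in 6 h replicate 2 and 8541 to 9935 in the other libraries. The 10 striatum markers summed to 2266 to 2710 in labelled NEIL1-KO. In WT they summed to 4180 in 6 h replicate 2 and to 2680 to 2741 in the other libraries. Their median was -0.29, with Tac1 passing as lower with all 24 libraries (10.0%, against 9.31% of all genes). That median was -0.17 without NEIL1-KO 6 h replicate 2, and Tac1 did not pass (-0.34, adjusted p = 0.24). Of 4 detected neutrophil and monocyte markers 0 passed (median 0.03). The neuron markers summed to 81750 to 142800 in labelled NEIL1-KO and 138800 to 158400 in WT, with NEIL1-KO 6 h replicate 2, the library with the most choroid plexus, meningeal and red blood cell RNA, at the bottom. NEIL1-KO 3 h replicate 2, with the least choroid plexus RNA, was the highest of its group at 142800. The part of these tissues in the neuronal, glial and vascular values was not tested beyond the choroid plexus term given above.

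**Figure D5:**
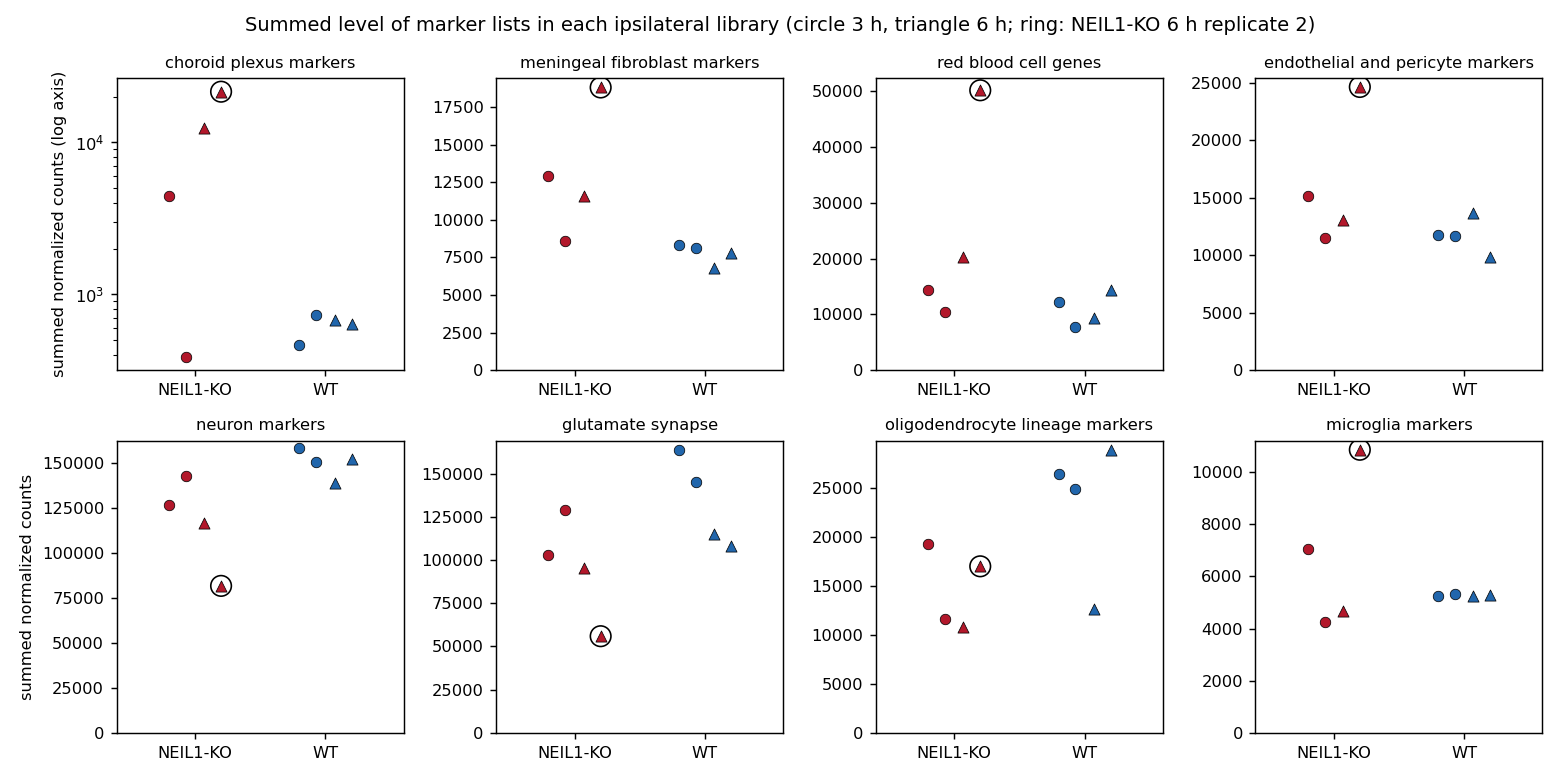
Summed normalized counts of 8 marker lists in each ipsilateral library (circles 3 h, triangles 6 h; the ring marks NEIL1-KO 6 h replicate 2; choroid plexus on a log axis, the others from 0). The ringed library is highest for choroid plexus (21540), meningeal fibroblast (18790), red blood cell, endothelial and microglia lists and lowest for neurons (81750) and glutamate synapse genes (55940).

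Whether the genotype difference changed between 3 h and 6 h was tested in the 8 libraries. For 0 of 18364 genes did it pass by limma (0.0%), with 980 at an unadjusted p under 0.05 (5.337%), a smallest adjusted p of 0.448, 0 genes called by edgeR and 9 by DESeq2. The differences of the 7 called genes were close at both times: on the log2 scale Gm16867 had 3.90 at 3 h and 4.01 at 6 h, Plac9a 2.43 and 2.26, Tmem254a 1.48 and 1.10, Duxbl1 1.63 and 1.79, Ndn -0.91 and -1.21 and Cbl -0.99 and -0.88. List medians moved more. The glutamate synapse median was -0.32 at 3 h and -0.62 at 6 h, that of neuron markers -0.27 and -0.70, and that of cytokines and chemokines -0.20 and 0.67. These are descriptions of 2 libraries per genotype and time, and NEIL1-KO 6 h replicate 2 is among those at 6 h.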

How the data were processed

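The deposited table holds 1 signal per gene and library, a read count that the authors divided by 1 size factor per library. The submitters' processing notes name the build GRCm39 (mm39) and, among tools, DESeq2, featureCounts, HISAT2, SAMtools and Trim Galore. Versions and strand settings are not given in the sources used here, so overlapping antisense genes cannot be told apart. All values (100.0%, tolerance 1e-06) were whole multiples of 1 read's worth, which gave whole reads for the count tests (edgeR called 7 genes). Of 33084 lines, 10770 (32.55%) carried no gene name. They took 9.149% to 12.484% of the reads of the 8 ipsilateral libraries and stayed out of the tests and their library sizes. Genes with at least 10 in at least 2 of 24 libraries were tested (18364 genes).

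The test of genotype, with time as a block, was limma-trend (limma 3.58.1, R 4.3.3) on log2(value + 1), adjusted by Benjamini-Hochberg over all tested genes. edgeR 4.0.16 and DESeq2 1.42.0 on whole reads were alternatives, beside a pseudocount of 5, no filter, all 24 libraries, library weights, a replicate block, sex and choroid plexus terms, and leaving out libraries. Scripts were tested on simulated data. Intervals of read ratios cover counting error only. Positions come from RefSeq (GRCm38.p6, another build) and were used only for order and chromosome. The members and gene lists were chosen with earlier results of these data known. The naming rule took Neil1, Neil2, the largest changes among called genes (also without NEIL1-KO 6 h replicate 2 and for the time difference), up to 4 members of each list by smallest p, called genes within 5 Mb of Neil1 and, added after seeing the data, the 10 highest and 10 lowest called with all 24 libraries whose groups did not overlap, with a mean of at least 50. Results of some listed genes are not reported here.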

Additional observations from a re-analysis of the deposited data

How the results depend on the processing

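The direction and count of the 7 ipsilateral calls held with a pseudocount of 5, no filter and edgeR. It was 276 by DESeq2, 1710 with all 24 libraries, 14 with library weights, 1 with a sex term, 2 with a choroid plexus term and 2 to 11 when 1 library was left out. It was 345, 710 and 180 in fits chosen after seeing the data (all 24 without NEIL1-KO ipsilateral 6 h replicate 2, without animals with high Xist, and with a choroid plexus term), and 7 with the 12 ipsilateral libraries, chosen likewise. It was 10 in the 8 libraries without animals with high Xist. The time difference gave 0 under each setting but DESeq2 (9). The side difference gave 3 by DESeq2 and 0 to 1704 when 1 library was left out, 1 of these being 41 without WT ipsilateral 6 h replicate 1. The contralateral count of 33 was 192 by DESeq2, 10 without a filter, 19 with all 24 libraries, 89 with weights, 11 without animals with high Xist, 11 with a sex term, 122 with a choroid plexus term and 16 to 82 when 1 library was left out. With a choroid plexus term in the 8 libraries the log2 fold change of Ttr turned to -0.27, that of Tmem119 to -0.12 and that of Magel2 to 0.38. Ttr is among the choroid plexus markers averaged into that term, so its own shift was built in. Over all alternatives, named genes and list medians kept their direction and side of the threshold in 2006 values, passed where they had not in 209 and no longer passed in 41. Apart from what each fit holds, the cause of these shifts was not tested.

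Replicate numbers did not pair the libraries: deviations of same-numbered ipsilateral libraries correlated at -0.052 at 3 h and -0.094 at 6 h, and of contralateral ones at 0.2 and 0.035. With a replicate block 1 gene was called ipsilaterally, 0 for the time and side differences and 34 contralaterally; of the 7 genes Gm16867 still passed. The comparison rests on 4 libraries per genotype that were not matched for sex.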
